A study of Caenorhabditis elegans with 8 samples.

Results

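The vitellogenin genes vit-1 to vit-6 and the yolk receptor gene rme-2 of Caenorhabditis elegans were followed in whole worms with and without knockdown of cpr-6, which encodes a lysosomal protease related to cathepsin B. The 7 members were taken by gene name from the 46904 genes of the deposited table, and each name matched 1 gene. All worms were of the strain CL2006, in which a transgene under the unc-54 promoter, active in body wall muscle, makes human Aβ and a dominant rol-6 marker is also present. No group lacks Aβ, and the genotype field of the labels reads WT for every library. Synchronized worms ate HT115 (DE3) bacteria with either an empty vector (EV) or a cpr-6 RNAi plasmid for 2 generations at 20 °C, and pools of whole animals were collected on day 6 of adulthood after daily moves away from their progeny. Each group has 4 libraries made with CEL-Seq2, which reads the 3′ ends of polyadenylated transcripts. The series text calls them biological repeats, but nothing in the labels shows that they came from separate cultures, so the p-values reflect how far these libraries vary, which may be technical. RNA from pools of whole worms cannot tell fewer cells of a type from less RNA per cell.

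Vitellogenins are large lipid-carrying yolk proteins. The adult hermaphrodite intestine makes them, secretes them into the body cavity, and growing oocytes take them up through RME-2, a receptor of the low-density lipoprotein receptor family, by clathrin-mediated endocytosis. The proteins of vit-1 to vit-5 belong to the heavier yolk polypeptides, those of vit-3, vit-4 and vit-5 being close copies of each other, while the product of vit-6 is cut into the lighter ones. Worms go on making yolk after their fertile period, and yolk then collects in the body cavity. Transcription in the intestine needs GATA factors such as ELT-2 and the homeodomain proteins UNC-62 and CEH-60, and it responds to insulin signalling through DAF-16.

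All vitellogenin genes but vit-6 lie on the X chromosome in the WBcel235 coordinates of the deposited table. vit-3 (WBGene00006927, X, 3567355 to 3572549) and vit-4 (WBGene00006928, X, 3558839 to 3563974) are on the minus strand with 3380 bases between them, and vit-5 (WBGene00006929, X, 3403471 to 3408603, plus strand) lies a further 150.2 kb away. vit-2 (WBGene00006926, X, 5101032 to 5106173) and vit-1 (WBGene00006925, X, 7727889 to 7733168) are on the plus strand of the same chromosome. vit-6 (WBGene00006930, IV, 8261134 to 8266462) and rme-2 (WBGene00004374, IV, 5469961 to 5473174) are on the plus strand of chromosome IV. In the Ensembl annotation of the same build, vit-3, vit-4 and vit-5 have 6 exons each and the same coding length of 4809 bases. Their 3′ UTRs, where a 3′-end library has most of its reads, are annotated at 103, 124 and 48 bases, and that of vit-1 at 225 bases. The Ensembl 3′ end of vit-4, at 3558769, lies outside the range in the deposited table, while those of vit-3 and vit-5 coincide with it. How reads that fit more than 1 of these copies were counted is not given in the sources used here, so the split of counts among them is uncertain. The genes annotated across vit-2, vit-3 and vit-4 on the other strand (C42D8.9, T27A10.8 and F59D8.3) held at most 1 count in any library.

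Libraries held 8184412 to 12506320 counts. The knockdown was seen in every library, with cpr-6 at 65.2 to 102 CPM (counts scaled by the total of all counts in a library) under cpr-6 RNAi against 737 to 791 CPM with empty vector. Genes of the mitochondrial genome took 2.14% of counts in cpr-6 RNAi replicate 4 and 0.805% to 1.16% in the other 7 libraries.

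The 6 vitellogenin genes together took 2.90% to 5.08% of all counts. With empty vector their summed share was 3.05%, 3.31%, 4.38% and 3.69% for replicates 1 to 4. Under cpr-6 RNAi it was 5.08%, 2.90%, 4.50% and 3.91%. Both the highest and the lowest library belonged to the cpr-6 RNAi group, and the groups overlapped. The mean share was 3.61% ± 0.577 (SD, n = 4) with empty vector and 4.10% ± 0.931 (SD, n = 4) under cpr-6 RNAi, a log2 ratio of 0.18 that was not tested. Without cpr-6 RNAi replicate 1 that log2 ratio was 0.064, without empty vector replicate 1 it was 0.11, without empty vector replicate 3 it was 0.29 and without cpr-6 RNAi replicate 2 it was 0.32. Counting error was small beside this spread, since the exact (Clopper-Pearson) 95% interval of the lowest share ran from 2.89% to 2.92% and that of the highest from 5.07% to 5.10%. Such intervals cover counting error only.

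**Figure D1:**
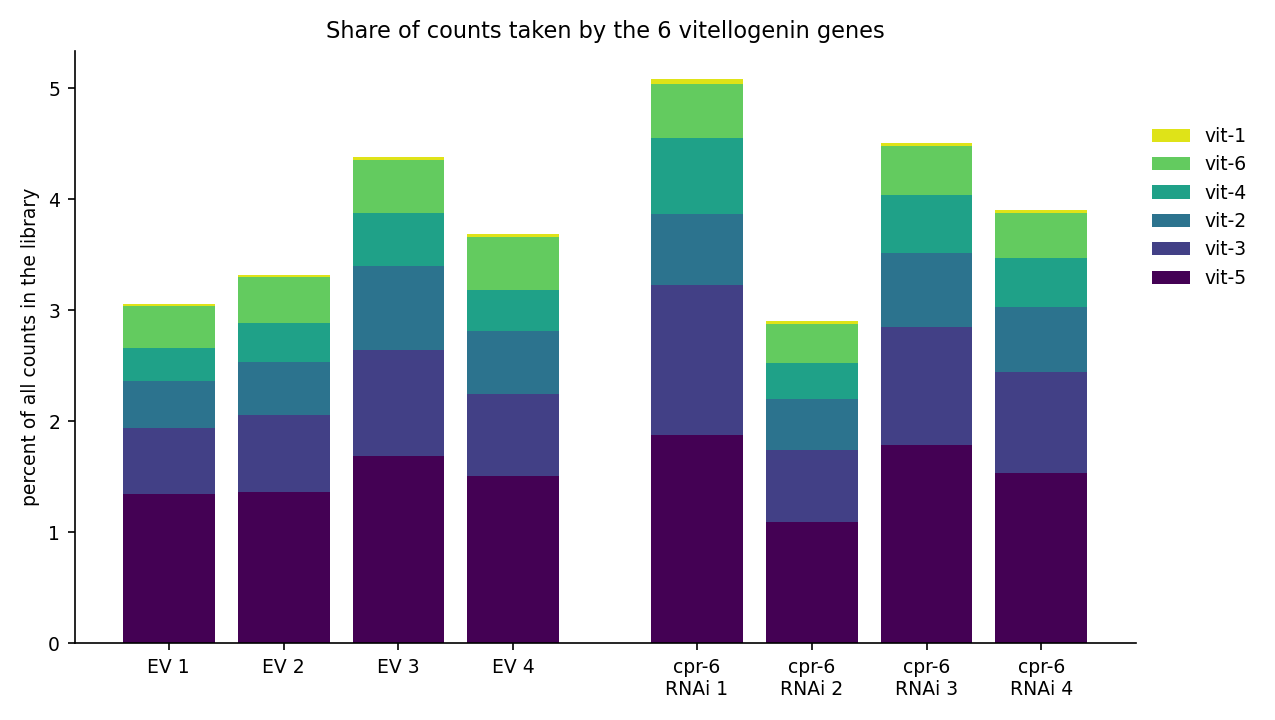
Share of all counts in each library (y axis, percent) taken by the 6 vitellogenin genes, with empty vector (EV) and cpr-6 RNAi libraries on the x axis and 1 colour per gene. Whole bars run from 2.90% in cpr-6 RNAi replicate 2 to 5.08% in cpr-6 RNAi replicate 1, and vit-5 is the largest part of every bar.

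vit-5 was the most abundant member, and the order below it was mostly the same from library to library. Averaged over the 8 libraries, levels were 15227 CPM for vit-5, 8701 for vit-3, 5727 for vit-2, 4342 for vit-4, 4262 for vit-6, 338 for rme-2 and 285 for vit-1. Divided by transcript length these are 3127, 1767, 1161, 880, 843, 118 and 56.1 CPM per kb. A 3′-end count does not grow with transcript length, so CPM is the scale to read. Values per kb are given for comparison only, and the order of the means was the same on both scales. vit-5 stood above vit-3 and vit-3 above vit-2 in 8 of 8 libraries on either scale. vit-2 stood above vit-4 in 7 of 8. vit-4 and vit-6 could not be ordered, as vit-4 was higher in 3 of 8 libraries by CPM and in 4 of 8 per kb. rme-2 lay above vit-1 in 6 of 8 libraries by CPM and in 8 of 8 per kb. By count vit-5 ranked first of all genes in 7 libraries and second in cpr-6 RNAi replicate 2, vit-3 ranked between 2 and 7, vit-2 between 4 and 16, vit-4 between 4 and 33, and vit-6 between 10 and 22, whereas vit-1 ranked between 371 and 1112.

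None of the 7 members changed under cpr-6 RNAi in edgeR's quasi-likelihood test. That test, across 10932 genes with Benjamini-Hochberg adjustment, called 0.00915% of all genes (1 gene, cpr-6), so 0 of 7 carries little weight against the background. At unadjusted p under 0.05 it had 0 of 7 members, beside 3.85% of all genes. In the 500 most abundant genes the limma voom 95% interval of a fold change had a median half-width of 0.17 on the log2 scale, and those of the vitellogenins were wider, as given below. CPM of the groups overlapped for all 7 members, while 2.63% of genes tested had groups that did not overlap. limma voom and DESeq2 also called 0 of 7, at 0.00915% and 0.0457% of all genes. At unadjusted p under 0.05 limma voom, unlike edgeR, had 3 of 7 members (vit-1 at 0.0391, vit-3 at 0.0474 and vit-4 at 0.0463, each with an adjusted p of 0.994), beside 4.03% of all genes, and vit-3 and vit-4 may share reads. The authors' deposited table has an adjusted p of 1.00 (rounded) for each of the 7 members, with 0.053% of its genes under 0.05.

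vit-3 and vit-4, the neighbouring pair of close copies, had the higher mean under cpr-6 RNAi but a wide spread. vit-3 stood at 5894, 6956, 9565 and 7437 CPM in empty vector replicates 1 to 4 and at 13545, 6479, 10619 and 9115 CPM in cpr-6 RNAi replicates 1 to 4. The highest library was cpr-6 RNAi replicate 1, and cpr-6 RNAi replicate 2 lay below 3 of the empty vector libraries. Means were 7463 ± 1542 and 9939.7 ± 2951 CPM (SD, n = 4), and the edgeR log2 fold change was 0.44 ± 0.251 (SE, adjusted p = 0.997, unadjusted 0.126). vit-4 stood at 3003, 3484, 4743 and 3673 CPM with empty vector and at 6852, 3309, 5270 and 4403 CPM under cpr-6 RNAi, in the same order of libraries as vit-3. Its edgeR log2 fold change was 0.44 ± 0.245 (SE, adjusted p = 0.997, unadjusted 0.119). Exact two-sided permutation tests on CPM gave p = 0.200 for vit-3 and 0.229 for vit-4, where 4 against 4 can reach 0.0286. Unadjusted 95% intervals from limma voom ran from 0.0053 to 0.79 for vit-3 and from 0.0074 to 0.79 for vit-4, just above 0. Without cpr-6 RNAi replicate 1 the edgeR log2 fold changes were 0.23 and 0.22.

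vit-1 had the lowest level and the widest spread of the vitellogenins. It stood at 176, 187, 326 and 266 CPM in empty vector replicates 1 to 4 and at 475, 254, 256 and 343 CPM in cpr-6 RNAi replicates 1 to 4. It was lowest with empty vector in replicates 1 and 2, and cpr-6 RNAi replicate 1 was the highest, at 2.70 times the lowest. Means were 239 ± 70.8 and 332 ± 104 CPM (SD, n = 4), with an edgeR log2 fold change of 0.50 ± 0.279 (SE, adjusted p = 0.997) and an exact permutation p of 0.200. The limma voom interval ran from 0.028 to 0.93. The edgeR value was 0.25 without cpr-6 RNAi replicate 1. The difference in mean log2 CPM between treatments was 0.96 within replicates 1 and 2 and 0.016 within replicates 3 and 4. The edgeR test of whether those effects differ gave -1.01 ± 0.426 (SE, adjusted p = 0.997, unadjusted 0.0513), and called 0% of all genes, with 3.82% at unadjusted p under 0.05 and 0 of 7 members. With no low-count filter, over 20023 genes, the same edgeR test called 15 genes (0.0749%), vit-1 among them (-1.04, adjusted p = 0.00643). vit-1 had 1669 counts or more in every library, so leaving out the filter changed the other genes in the fit and not the counts of vit-1.

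vit-2 and vit-5, on the X chromosome too, lay close to each other in their treatment difference. vit-5 stood at 13485, 13581, 16865 and 15034 CPM with empty vector and at 18754, 10939, 17858 and 15297 CPM under cpr-6 RNAi. The cpr-6 RNAi libraries held both extremes. The edgeR log2 fold change was 0.11 ± 0.165 (SE, adjusted p = 0.997), the limma voom interval ran from -0.21 to 0.37 and without cpr-6 RNAi replicate 1 the edgeR value was -0.0045. vit-2 stood at 4256, 4832, 7564 and 5671 CPM with empty vector and at 6411, 4552, 6648 and 5881 CPM under cpr-6 RNAi. Here the highest library was empty vector replicate 3. Its edgeR log2 fold change was 0.093 ± 0.187 (SE, adjusted p = 0.997), with a limma voom interval from -0.22 to 0.42, and -0.011 without empty vector replicate 1. Exact permutation p was 0.629 for vit-5 and 0.743 for vit-2.

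vit-6, the source of the lighter yolk proteins and the one vitellogenin gene off the X chromosome, varied least of the 6. Its levels were 3719, 4097, 4759 and 4784 CPM in empty vector replicates 1 to 4 and 4801, 3515, 4396 and 4024 CPM in cpr-6 RNAi replicates 1 to 4. The highest and the lowest library were again cpr-6 RNAi replicates 1 and 2, 1.37-fold apart. Means were 4339.8 ± 522 and 4184 ± 547 CPM (SD, n = 4). The edgeR log2 fold change was -0.035 ± 0.104 (SE, adjusted p = 0.997), the limma voom interval ran from -0.26 to 0.18, or 0.835-fold to 1.13-fold, and the exact permutation p was 0.657. The sign turned positive without empty vector replicate 3 (0.0022), empty vector replicate 4 (0.016) or cpr-6 RNAi replicate 2 (0.041).

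rme-2, which encodes the oocyte yolk receptor, was the steadiest member. It stood at 342, 358, 352 and 336 CPM in empty vector replicates 1 to 4 and at 365, 339, 327 and 282 CPM in cpr-6 RNAi replicates 1 to 4. cpr-6 RNAi replicate 4 was the lowest, and the other 7 libraries lay between 327 and 365 CPM. Means were 347 ± 9.69 and 328 ± 34.7 CPM (SD, n = 4), the edgeR log2 fold change was -0.062 ± 0.0891 (SE, adjusted p = 0.997) and the limma voom interval ran from -0.26 to 0.12. Without cpr-6 RNAi replicate 4 the edgeR value was 0.0090. That library also had the highest mitochondrial share and the lowest summed level of 18 oocyte marker genes (20586 CPM, against 20900 to 22288 CPM in the others), and the part of either in the low rme-2 value was not tested. The largest parts of that sum were perm-2 and perm-4, at 4392 and 5409 CPM on average with empty vector. The sum therefore says little about how far the other oocyte markers were lower.

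**Figure D2:**
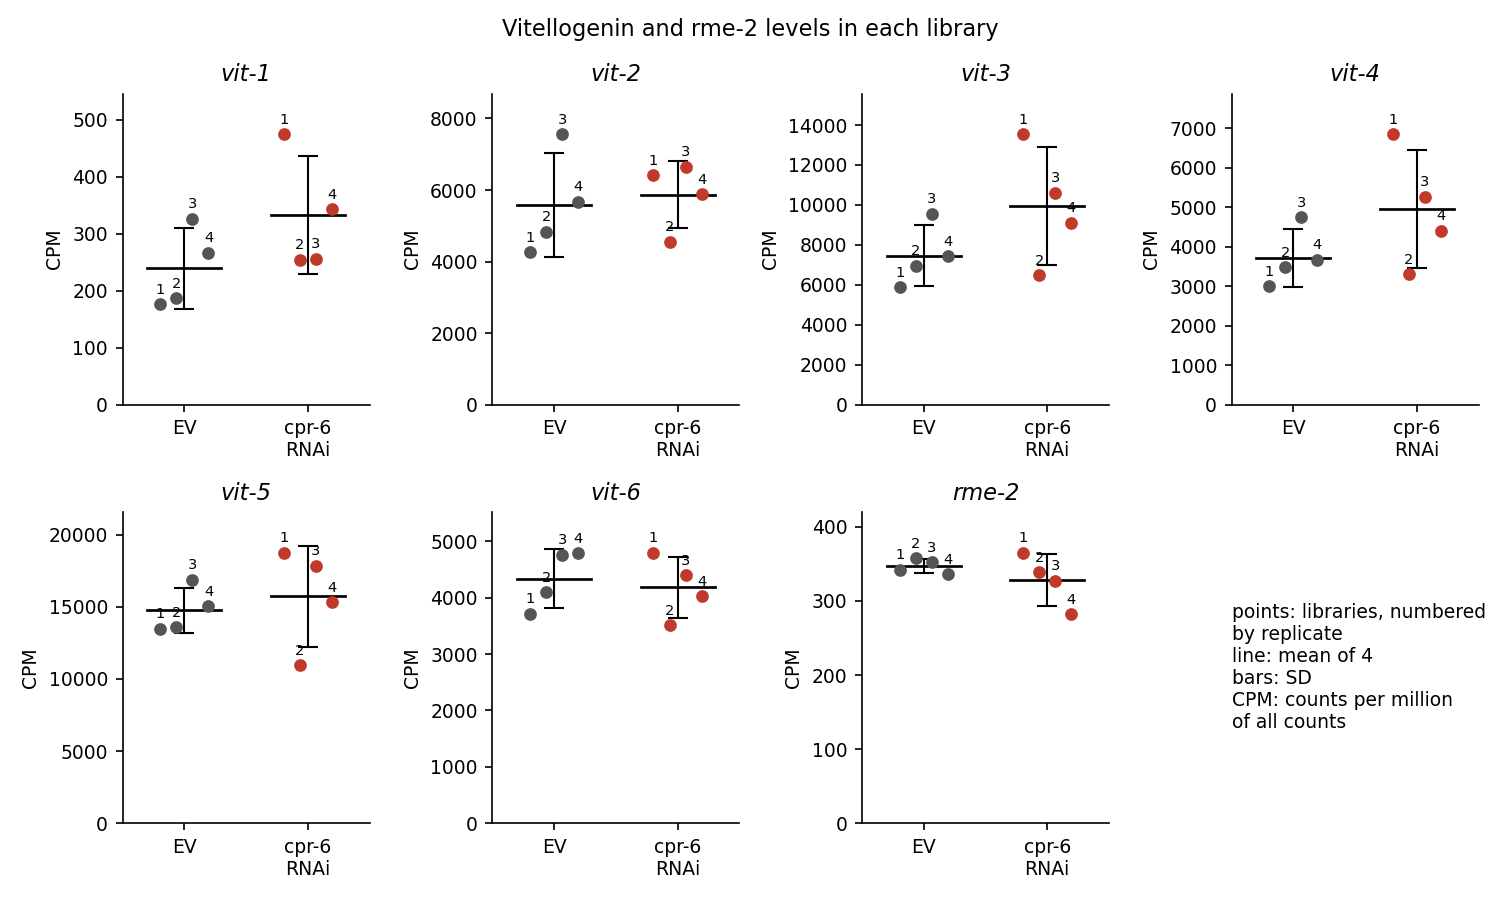
Level of each member in CPM (y axis, starting at 0) in empty vector (EV) and cpr-6 RNAi libraries, with points numbered by replicate, a line at the mean and bars for the SD (n = 4). In vit-3 and vit-4 the cpr-6 RNAi points spread from below 3 empty vector points to above all 4, while rme-2 points lie between 282 and 365 CPM.

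**Figure D3:**
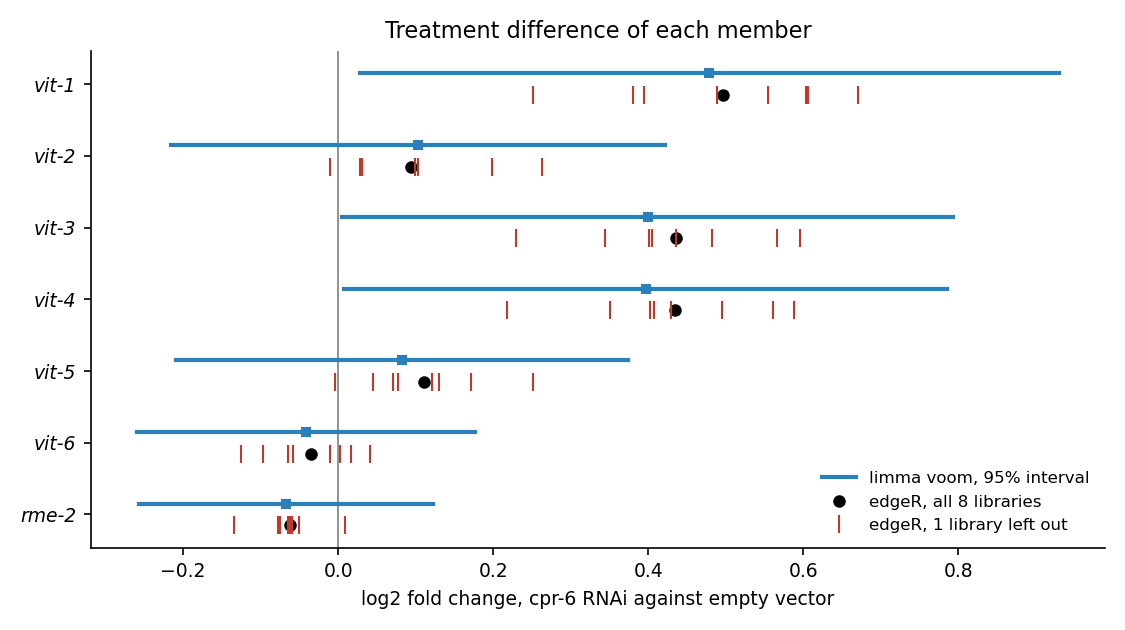
Log2 fold change of each member under cpr-6 RNAi against empty vector (x axis), from edgeR with all 8 libraries (black), from edgeR with each library left out (red ticks) and from limma voom with its unadjusted 95% interval (blue). Values for vit-1, vit-3 and vit-4 lie between 0.22 and 0.67 in every fit shown, and those for vit-2, vit-5, vit-6 and rme-2 lie on both sides of 0 when libraries are left out.

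Libraries of the same treatment differed more in vitellogenins than in most genes of high abundance. The SD of log2 CPM within groups was 0.43 for vit-1, 0.38 for vit-3, 0.37 for vit-4, 0.30 for vit-2, 0.28 for vit-5, 0.19 for vit-6 and 0.13 for rme-2. Its median was 0.11 over the 500 genes with the highest mean CPM and 0.21 over all genes tested. Set beside those 500 genes, the values for vit-1, vit-3 and vit-4 were at or above 97.6%, 97.0% and 96.8% of them, vit-2 at 94.4%, vit-5 at 93.6%, vit-6 at 82.4% and rme-2 at 63.4%. By count rme-2 ranked between 503 and 656 and vit-1 between 371 and 1112, so both may be less abundant than those 500 genes. These SDs are a description of 8 libraries, with no test. Counting error was small beside these SDs, with 95% exact intervals of at most 4.83% either side of the value for vit-1 and at most 1.16% for vit-2 to vit-6.

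**Figure D4:**
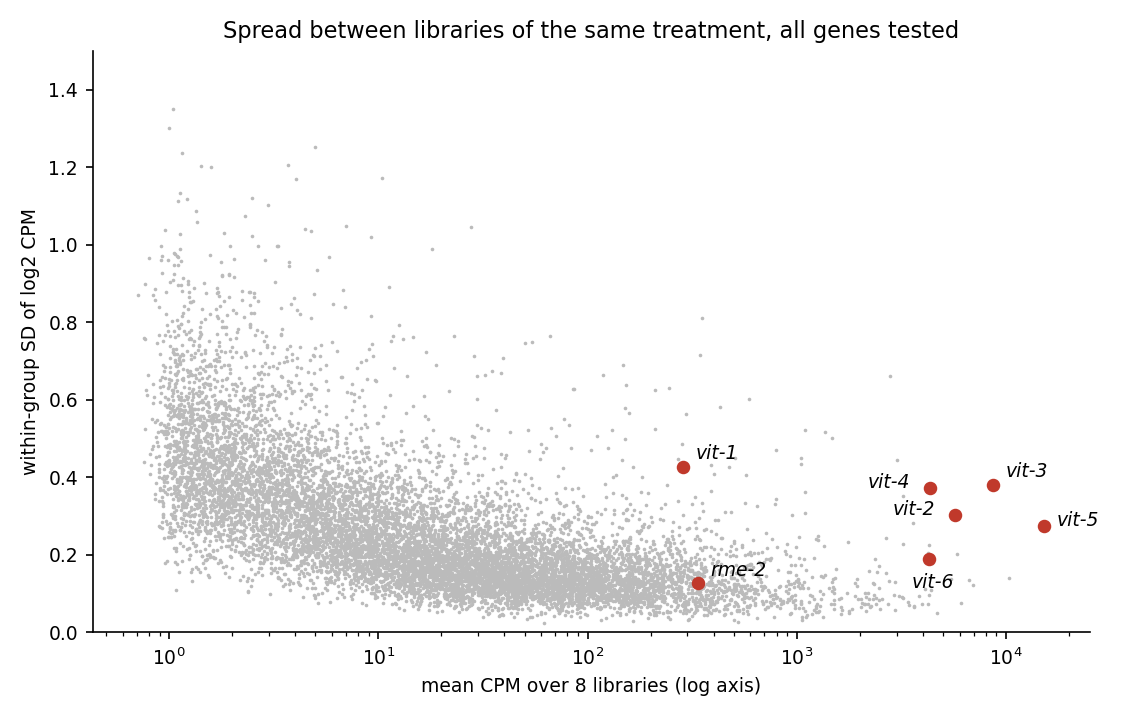
Within-group SD of log2 CPM (y axis) against mean CPM over the 8 libraries (x axis, log scale) for the 10932 genes tested (grey) and the 7 members (red). The vitellogenins lie above most genes of like abundance, with vit-1 at 0.43 and vit-6 at 0.19, and rme-2 lies within the cloud at 0.13.

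No member passed edgeR's test of replicates 1 and 2 against replicates 3 and 4 with the low-count filter, and without it vit-2 did (0.33, adjusted p = 0.00758, with 0.859% of all genes called). Leaving out the filter changed the other genes in the fit and not the counts of vit-2. With empty vector all 6 vitellogenins lay lower in replicates 1 and 2 than in replicates 3 and 4, but this did not hold under cpr-6 RNAi, since within the cpr-6 RNAi group replicate 1 was the highest library and replicate 2 the lowest for vit-3, vit-4, vit-5 and vit-6. No label says what separates the numbers. With a term for this division edgeR gave vit-2 a log2 difference of 0.34 ± 0.139 (SE, replicates 3 and 4 minus 1 and 2, adjusted p = 0.534, unadjusted 0.0356). No other member was under 0.05 unadjusted, at 0.13 to 0.18 for the other vitellogenins and -0.14 for rme-2. The division term called 0.0823% of all genes and had 8.68% at unadjusted p under 0.05, so 1 of 7 members is not far from the background. With the division in the model the treatment effects were 0.53 for vit-1, 0.45 for vit-3, 0.45 for vit-4, 0.12 for vit-2, 0.11 for vit-5, -0.028 for vit-6 and -0.067 for rme-2, with adjusted p of 0.990 to 0.993 in edgeR. Within replicates 1 and 2 and within replicates 3 and 4 the treatment difference in mean log2 CPM was 0.57 and 0.23 for vit-3, 0.58 and 0.21 for vit-4, 0.10 and 0.061 for vit-5, 0.28 and -0.060 for vit-2, 0.097 and -0.17 for vit-6, and 0.030 and -0.17 for rme-2.

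The 6 vitellogenins did not keep fixed proportions, with 1 exception. Counts of vit-3 were 1.963, 1.996, 2.017 and 2.025 times those of vit-4 in empty vector replicates 1 to 4 and 1.977, 1.958, 2.015 and 2.070 times in cpr-6 RNAi replicates 1 to 4, although each gene's level varied 2.3-fold. The coefficient of variation of this ratio over the 8 libraries was 1.86%, where counting error alone gives 0.597%. Among the 10931 other genes tested, vit-4 had the steadiest ratio to vit-3, and the next, snf-9, had 10.2%, with a median of 30.6%. How far reads shared between these close copies enter the ratio was not tested. No such partner was seen for vit-5, where the steadiest ratio of any gene to it varied by 7.30% (spo-11), or for vit-6, where it varied by 5.12% (F53A10.2).

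vit-3 and vit-4 were more abundant relative to vit-5 in each cpr-6 RNAi library than in any empty vector library. The ratio of vit-3 to vit-5 was 0.437, 0.512, 0.567 and 0.495 with empty vector and 0.722, 0.592, 0.595 and 0.596 under cpr-6 RNAi. The ratio of vit-4 to vit-5 was 0.223, 0.257, 0.281 and 0.244 with empty vector and 0.365, 0.302, 0.295 and 0.288 under cpr-6 RNAi. The groups did not overlap in either, with cpr-6 RNAi replicate 1 the highest and empty vector replicate 1 the lowest. As a share of all vitellogenin counts, vit-3 made up 19.3% to 21.8% with empty vector and 22.3% to 26.6% under cpr-6 RNAi, and vit-4 made up 9.83% to 10.8% and 11.3% to 13.5%. vit-5 made up 38.5% to 44.2% and 36.9% to 39.6%, vit-6 10.9% to 13.0% and 9.44% to 12.1%, vit-2 13.9% to 17.3% and 12.6% to 15.7%, and vit-1 0.565% to 0.744% and 0.569% to 0.933%, all of which overlapped. The shares were not tested and have no background of other genes. They are parts of the same total, and vit-3 and vit-4 may share reads, so their shares are not separate observations.

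These ratios were chosen after their values were seen, and the 21 possible pairs of members were all computed. In 3 of 21 pairs the groups did not overlap: vit-3 to vit-5, vit-4 to vit-5 and, lower under cpr-6 RNAi, vit-2 to vit-4, whose mean ratio was 1.49 ± 0.0995 with empty vector and 1.23 ± 0.200 under cpr-6 RNAi (SD, n = 4). The 3 pairs share genes, and vit-3 and vit-4 may share reads, so they are not independent. In each of them an exact permutation test, two-sided, gave p = 0.0286, the smallest that 4 against 4 allows. Groups without overlap always reach that p, so it restates the lack of overlap and adds no further evidence. After adjustment over the 21 pairs it was 0.171, and no pair passed. With only 3 pairs at that smallest p, none could have passed, so the adjusted test cannot decide either way. The vit-3 to vit-5 ratio was higher by 0.32 on the log2 scale in the mean, by 0.47 within replicates 1 and 2 and by 0.17 within replicates 3 and 4. Among the 10931 genes other than vit-5, 0.128% had a ratio to vit-5 that was higher in every cpr-6 RNAi library than in any empty vector library (14 genes), and 0.357% did not overlap in either direction. vit-3 and vit-4 are 2 of those 14 genes, and acp-6, ugt-66, C53A5.13, spp-9, Y48E1B.8, F59C6.18, Y69H2.9, cyp-35D1, R102.4, clec-170, npr-4 and clec-55 are the others. Plain CPM did not overlap in 2.63% of genes. Dividing by vit-5 adds its spread to genes that do not follow it. The ratios of vit-3 and vit-4 to vit-5 had coefficients of variation of 15.2% and 15.4%, beside a median of 23.9% over the 10931 genes. The 0.128% is therefore not a like background for them, and the vit-2 to vit-4 ratio was given none. In an edgeR fit with libraries scaled to their vit-5 counts, vit-3 and vit-4 had log2 fold changes of 0.32 and 0.32 and adjusted p of 1.00 (unadjusted 0.180 and 0.183).

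**Figure D5:**
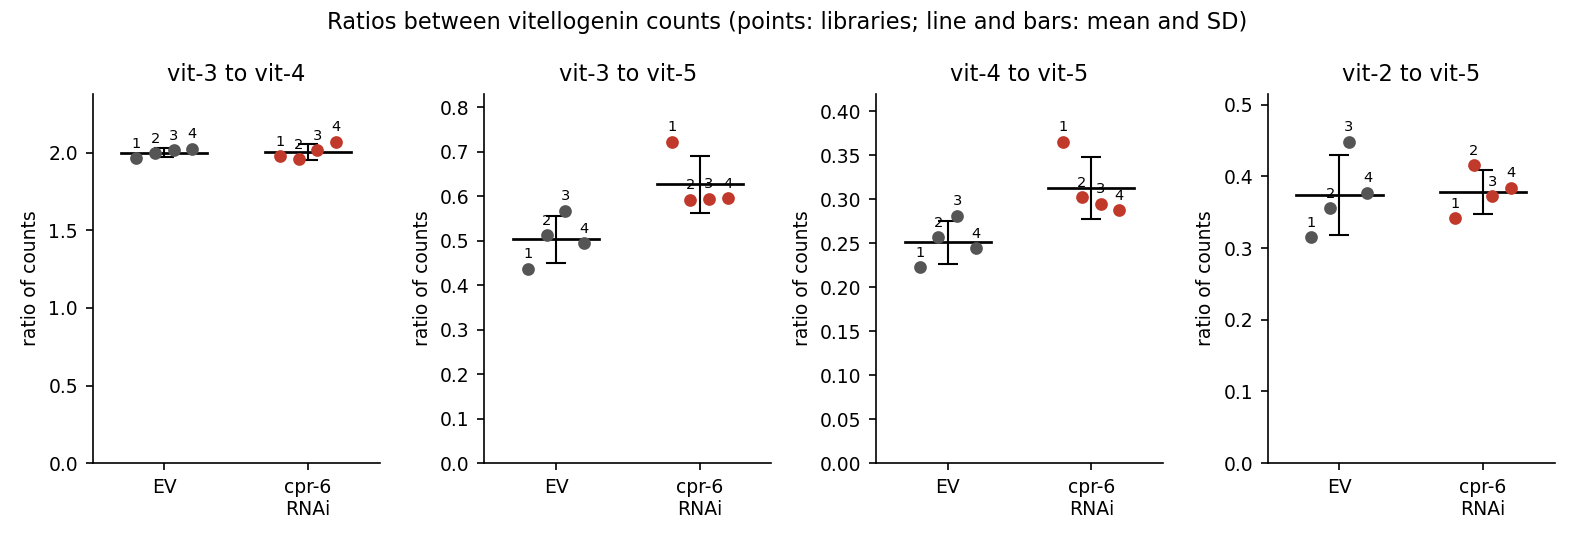
Ratios between vitellogenin counts (y axis, starting at 0) in empty vector (EV) and cpr-6 RNAi libraries, with points numbered by replicate, a line at the mean and bars for the SD (n = 4). The ratio of vit-3 to vit-4 stays between 1.96 and 2.07, the ratios of vit-3 and vit-4 to vit-5 do not overlap between the groups, and that of vit-2 to vit-5 does.

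Genes that act with the members were taken from lists of known roles, and 0 of them passed edgeR's test, beside 0.00915% of all genes. Over all genes tested, 5487 lay above 0 and 5445 below. Of 24 genes of yolk uptake and endocytosis, all were tested, 17 lay below 0 and 7 above, and the median log2 fold change was -0.027, beside 0.00058 over all genes tested. dab-1, an adaptor for receptors of the RME-2 family, stood at 352 ± 18.9 and 312 ± 10.4 CPM (SD, n = 4; log2 fold change -0.16, edgeR adjusted p = 0.997). The late endosome GTPase gene rab-7 had -0.14 and the dynamin gene dyn-1 0.12. The recycling gene rme-1 lay at 286 and 284 CPM and the clathrin heavy chain gene chc-1 at 571 and 553 CPM. Of 5 genes of lipoprotein assembly, all lay above 0 with a median of 0.056, but the smallest value was 0.00074. Their summed levels overlapped, at 2353 to 2601 CPM with empty vector and 2497 to 2609 CPM under cpr-6 RNAi. Among these genes dsc-4, the microsomal triglyceride transfer protein gene, had 0.25, the secretory GTPase gene sar-1 0.14 and the disulfide isomerase gene pdi-2 0.056.

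Regulators of vitellogenin transcription ranged widely in level. Of 14, 11 had enough counts for the test, with 7 below 0, 4 above and a median log2 fold change of -0.10. The list is not divided into genes that raise and genes that lower vitellogenin transcription. Its median, its counts of directions and its summed level therefore give no direction for that transcription. unc-62 stood at 20.4 ± 2.19 and 16.6 ± 4.12 CPM (SD, n = 4; log2 fold change -0.29, edgeR adjusted p = 0.997). The TGF-beta ligand gene dbl-1 had -0.49 at 1.70 and 1.18 CPM, and the zinc finger gene pqm-1 had -0.15. The summed level of the 14 was 287 to 315 CPM with empty vector and 267 to 286 CPM under cpr-6 RNAi. The ranges lay apart by less than the SD within either group (12.03 and 9.09 CPM), this was the 1 of 8 list sums without overlap, and it was not tested. Most of the sum came from daf-16 (113 and 104 CPM) and rict-1 (78.2 and 68.9 CPM). ceh-60, mab-3 and lin-14 had at most 11, 2 and 1 counts in any library and were not tested.

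Marker genes of the tissues that make and take up yolk were present in all libraries. Of 12 intestine markers, 7 lay above 0 and 5 below, with a median log2 fold change of 0.037 and summed levels of 1611 to 1988 CPM with empty vector and 1547 to 2033 CPM under cpr-6 RNAi. The intestinal actin gene act-5 stood at 200.4 ± 43.6 and 257 ± 31.7 CPM (SD, n = 4; log2 fold change 0.38, edgeR adjusted p = 0.997, unadjusted 0.0158). elt-2 had 0.28 and the gut esterase gene ges-1 -0.25. cpr-6 RNAi replicate 1, the highest library for vit-1, vit-3, vit-4, vit-5 and vit-6, had 1756 CPM of intestine markers, within the range of the others. Most of that sum came from asp-1 and mtl-2 (1001 and 274 CPM on average with empty vector), so it says little about the other intestine markers. Of 18 oocyte markers, 14 lay below 0 and 4 above, with a median of -0.045. The RNA-binding protein gene mex-3 had -0.28, and the egg surface receptor genes egg-1 and egg-2 had -0.14 and -0.10.

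Markers of other tissues were measured beside these. All 10 body wall muscle markers lay above 0, with a median log2 fold change of 0.26 and 0 past edgeR's test, beside 0.00915% of all genes. lev-11 was at 0.29, mlc-2 at 0.26 and tnt-2 at 0.25. The summed level of the 10 was 3582, 4000, 6245 and 5817 CPM in empty vector replicates 1 to 4. It was 5225, 5498, 5829 and 7020 CPM in cpr-6 RNAi replicates 1 to 4. Most of the sum came from unc-54 (means of 2894 CPM with empty vector and 3554 CPM under cpr-6 RNAi). Within empty vector libraries the sum was low in replicates 1 and 2, where the vitellogenins were low. Under cpr-6 RNAi the sum was highest in replicate 4, where the vitellogenins were not. Its part in the vitellogenin values was not tested. Of 7 neuron markers, 6 were tested, with 4 above 0, a median of 0.071, and egl-3, rab-3 and egl-21 at 0.18, 0.18 and 0.12. Of 6 markers of zygotic transcription in embryos, 2 were tested, pes-10 at 0.23 and tbx-38 at 0.12 with a median of 0.17, and the summed level of the 6 was 11.3 to 19.2 CPM in all libraries.

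Genes with the most similar profile over the 8 libraries were ranked among 6422 genes with a mean of 10 CPM or more. For the summed vitellogenins these were spo-11, ufm-1, F28B4.3, gfm-1, aldo-2, sur-7, T25C12.3 and mct-4, with Pearson's r of 0.94 to 0.86 and Spearman's rho of 0.98 to 0.81. Without the libraries farthest from the median, cpr-6 RNAi replicates 1 and 2, r was 0.90 for spo-11 and 0.74 to 0.87 for the other 7. spo-11, a meiotic double-strand break gene, ran from 14.1 to 20.0 CPM and the aldolase gene aldo-2 from 708 to 884 CPM. For rme-2 the most similar were patr-1, ergo-1, nono-1, F38A5.2, Y50D4A.1, hmg-3, C13B4.1 and gei-14, with r of 0.99 to 0.97 and rho of 0.98 to 0.90. Without cpr-6 RNAi replicates 4 and 1, r was 0.76 for gei-14 and 0.91 to 0.98 for the other 7. The P-body gene patr-1 ran from 522 to 749 CPM and the Argonaute gene ergo-1 from 123 to 191 CPM. These are the largest of 6422 values over 8 libraries, so they carry no p and are a description.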

How the data were processed

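The authors deposited raw counts per gene, with normalized counts, log2 fold changes, p-values and a test score (the Wald statistic) of their own comparison. The build was WBcel235 and the tools, per the submitters' processing notes, were HTSeq 0.12.4, TopHat2 2.1.1, DESeq2 1.30.1 and cutadapt 2.10. Settings, annotation release, strandedness and whether molecular identifiers were counted were not given, so amplified copies may enter the counts. The headers of the normalized counts hold the word noBatch, whose meaning was not given, and those columns were not used here. The members, gene lists and tests were chosen with earlier results of these data known.

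All counts were fitted with R 4.3.3 and edgeR 4.0.16 (TMM, filterByExpr minimum count 10, robust quasi-likelihood test of treatment alone, two-sided, Benjamini-Hochberg over 10932 genes, threshold 0.05). limma 3.58.1 voom gave 95% intervals and DESeq2 1.42.0 was an alternative. CPM and percent use all counts of a library. Mean log2 CPM within replicate numbers uses TMM and a prior count of 2. Libraries were grouped by title. Chi-square per degree of freedom was taken between libraries of a group (genes with a summed count of 20 or more). It was 26.8 to 29.7 for pairs with cpr-6 RNAi replicate 4 and 5.98 to 14.7 for the other pairs. All values were above counting error, so no library was a copy of another, and all 8 were kept. This does not show whether the libraries were technical repeats, and cpr-6 RNAi replicate 4 differed most from its group. Named genes are the 7 members, up to 3 genes with the smallest p of each list, and the 8 genes with the highest Pearson's r of log2(CPM + 1) to the summed vitellogenins and to rme-2. rme-1, chc-1, daf-16, rict-1 and the genes beside vit-3 and vit-4 in their ratio to vit-5 were chosen after their values were seen. So were perm-2, perm-4, asp-1, mtl-2 and unc-54. A term separating replicates 1 and 2 from 3 and 4, which no label states, was tried because of those earlier results.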

Additional observations from a re-analysis of the deposited data

How the results depend on the processing

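Across other scalings, filters, tools and leave-outs, 0 of the 7 members and 0 of the listed genes passed the treatment test in any fit. Genes past the test numbered 1 with all libraries, 28 with no low-count filter, 5 in DESeq2 and 1 to 3 with a library left out. Same-numbered libraries of the groups were not shown to be pairs (correlations of deviations -0.031, 0.12, 0.019 and 0.25), and with the replicate block the count was 2. The division of replicates 1 and 2 from 3 and 4 had 9 genes, against 172 with no filter (0.859% of genes, vit-2 being the 1 member called), 5 with the strict filter, 49 in DESeq2, 4 in limma voom and 1 to 278 with a library left out (278 without cpr-6 RNAi replicate 3). The interaction had 0 genes, against 15 with no filter (0.0749%, vit-1 being the 1 member) and 0 to 462 with a library left out (462 without cpr-6 RNAi replicate 3 and 55 without cpr-6 RNAi replicate 4, but 0 members). Such leave-outs assume that a lone library varies like the others. The fold changes of vit-1, vit-3 and vit-4 stayed above 0 under every alternative tried, at 0.25 to 0.67, 0.23 to 0.60 and 0.22 to 0.59 with a library left out. With a library left out vit-2 reached 0.26 (both measures), vit-6 -0.13 (both measures) and rme-2 -0.13. Signs turned for vit-2 without empty vector replicate 1 (-0.011, and -0.036 as a ratio of mean CPM), for vit-5 without cpr-6 RNAi replicate 1 (-0.0045 and -0.0042), for rme-2 without cpr-6 RNAi replicate 4 (0.0090), and for vit-6 without empty vector replicate 3 (0.0022) or 4 (0.016) or cpr-6 RNAi replicate 2 (0.041 and 0.022). The cause was not tested. The log2 ratio of summed shares was 0.064 to 0.32 with a library left out. Leave-outs of the vit-3 and vit-4 ratios to vit-5, added after seeing the data, gave exact permutation p of 0.0286 to 0.0571. Groups that do not overlap with all 8 libraries cannot overlap with a library left out. Small p-values follow from that and are no check of these ratios. The log2 differences were 0.25 to 0.38 and 0.24 to 0.37. Counts of ceh-60, mab-3 and lin-14 were too low for the test, and those of the members were not.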
